A study of Mus musculus with 14 samples.

Results

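Cd38 and Bst1, adjacent genes on mouse chromosome 5 that encode related NAD-consuming ectoenzymes, were described in bone marrow-derived macrophages together with 7 genes that make, phosphorylate or use NAD (Nampt, Naprt, Nmrk1, Nmnat1, Nmnat3, Nadk and Sirt1). These 9 genes of 25239 gene symbols in the count table were chosen by name, and Cd38 was picked for its large response to tumor cell medium in these same libraries. The fold of Cd38 between media is therefore given as a description, with no test. All 9 genes had counts and passed the filter on low counts, among 13311 tested genes. Cd38 passed through its CM libraries, since its control libraries held 0 to 29 counts each.

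The 14 RNA-seq libraries fall into 4 groups. Macrophages came from Ezh2fl/fl;LysM-Cre+/- mice (KO, 3 libraries in each medium), in which Cre made from the lysozyme M gene removes the floxed part of Ezh2 in myeloid cells, or from littermate controls (WT, 4 libraries in each medium), whose own alleles the labels do not give. For 24 h the cells then received either Hepa1-6 conditioned medium (CM), taken from cultures of this mouse liver tumor line, or complete DMEM (control), so the groups are KO CM, KO control, WT CM and WT control. Before that, all macrophages were grown out of marrow over 7 to 10 days in 20% L929 medium, a fibroblast product that supplies macrophage growth factor, with 10% serum of fetal cattle and 5% of horse beside pyruvate, HEPES and antibiotics. No medium conditioned by another cell line served as a control, and neither the age of the mice nor whether libraries of a group came from separate mice is given in the sources used here, so the p-values speak only of the spread among the sequenced libraries, which may be technical.

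Library depth was 40.25 to 61.54 M exon counts in KO CM, 41.79 to 54.36 M in KO control, 41.31 to 85.77 M in WT CM and 45.17 to 82.09 M in WT control. WT libraries 3 and 4 of both media stood apart from WT libraries 1 and 2: the mean chi-square per gene between them was 56.7 to 97.2, against 9.02 to 21.9 between all other libraries of a group. They were also the deepest, and the labels name no batch. In the 2 exons of Ezh2 of 81 and 85 bp, counts per base were 7.22 to 19.3% of those in its other exons in KO CM and 2.07 to 31.7% in KO control, against 94.0 to 143% in WT CM and 103 to 170% in WT control, so the genotype labels fit the reads. Levels below are counts-per-million (CPM) values on TMM-scaled library totals, given with the SD over libraries, and differences are log2 fold changes with an approximate SE.

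NAD carries electrons in metabolism and is also consumed as a substrate by enzymes that release nicotinamide. Macrophages rebuild it from nicotinamide through the salvage pathway, in which NAMPT makes nicotinamide mononucleotide and the NMNAT enzymes turn that into NAD. Other entries are nicotinic acid, through NAPRT, nicotinamide riboside, through the NMRK kinases, and tryptophan, through the kynurenine pathway. CD38 is a membrane glycohydrolase that breaks down NAD and its precursor and forms cyclic ADP-ribose, a calcium-mobilizing messenger. BST1 (CD157) is its lipid-anchored relative, the sirtuins and PARPs consume NAD inside the cell, and NADK phosphorylates it to NADP.

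The sequence around the start of Cd38 held fewer CpG dinucleotides than those of the 6 other members with a window (none for Bst1 or Naprt), and it is shown beside that of Nampt because these genes stand at opposite ends of the data: Cd38 was counted almost only in CM, and Nampt was at a high level in every library. RefSeq promoter windows (GRCm38.p6, 250 bases before to 50 after the start) were held for 7 of the 9 genes, 9 windows in all. Both are written 5′ to 3′ with CpG dinucleotides in capitals, the first sequence from chr5:43868559-43868858 (plus strand) and the second from chr12:32820085-32820384 (plus strand).
Cd38: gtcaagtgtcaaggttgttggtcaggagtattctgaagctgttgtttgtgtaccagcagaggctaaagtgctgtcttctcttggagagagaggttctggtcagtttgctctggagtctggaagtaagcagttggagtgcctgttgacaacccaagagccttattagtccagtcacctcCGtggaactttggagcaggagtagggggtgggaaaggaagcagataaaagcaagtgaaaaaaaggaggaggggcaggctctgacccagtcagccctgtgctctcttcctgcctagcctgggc
Nampt: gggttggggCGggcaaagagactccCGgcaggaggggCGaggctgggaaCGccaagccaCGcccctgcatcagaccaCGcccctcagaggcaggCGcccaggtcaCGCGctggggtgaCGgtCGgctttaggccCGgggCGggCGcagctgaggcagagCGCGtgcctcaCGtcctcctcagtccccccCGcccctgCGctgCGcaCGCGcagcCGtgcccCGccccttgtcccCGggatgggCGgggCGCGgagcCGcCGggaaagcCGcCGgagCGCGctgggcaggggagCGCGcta
The Cd38 window held 1 CpG, and 5.4% of 32851 mouse windows of the same length held fewer. The median window held 7 CpG and the middle 50% of windows held 3 to 20. Nampt had 36, Sirt1 had 47, and the windows of Nmnat1, Nmnat3 and Nmrk1 had 13 to 28, while Nadk had 24 in one window and 4 in the other. GC content alone did not set Cd38 apart, at 51.7% against a median of 52.7%. None of 11 motifs searched on both strands was in the Cd38 window: STAT (TTCNNNGAA, in 8.3% of all windows), AP-1 (TGANTCA, 7.8%), NF-kB (GGGA and TTCC with any 2 bases between, 1.5%), the interferon response element (a pair of GAAA with any 2 bases between, 3.4%), C/EBP (TTGCNNAA, 10.8%), the PU.1 core (GAGGAA, 28.3%), the TATA box (TATAAA, 13.6%), the CCAAT box (CCAAT, 37.4%), the Sp1 GC box (GGGCGG, 35.7%), the hypoxia response core (ACGTG, 19.6%) and the E-box (CACGTG, 7.2%, which contains the hypoxia core). This says only that these letters are not in these 300 bases.

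Cd38 was nearly silent in control medium and well expressed in CM in both genotypes. In KO CM its level was 80.3, 83.3 and 92.9 CPM, against 0.0727, 0.0526 and 0.0226 CPM in KO control, which were 4, 3 and 1 counts. In WT CM it was 60.7, 63.9, 68.4 and 76.3 CPM, against 0, 0.196, 0.352 and 0.25 CPM in WT control, which were 0, 10, 29 and 21 counts. Every CM library lay far above every control library, and the count of 0 in WT control library 1 allows a level of up to 0.0651 CPM (3 counts). As these are the values that chose Cd38, the fitted differences of 10.65 ± 0.34 in KO and 8.21 ± 0.24 in WT are descriptive. Of the 13311 tested genes, 1 had a larger increase in KO and 7 had a larger one in WT.

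**Figure D1:**
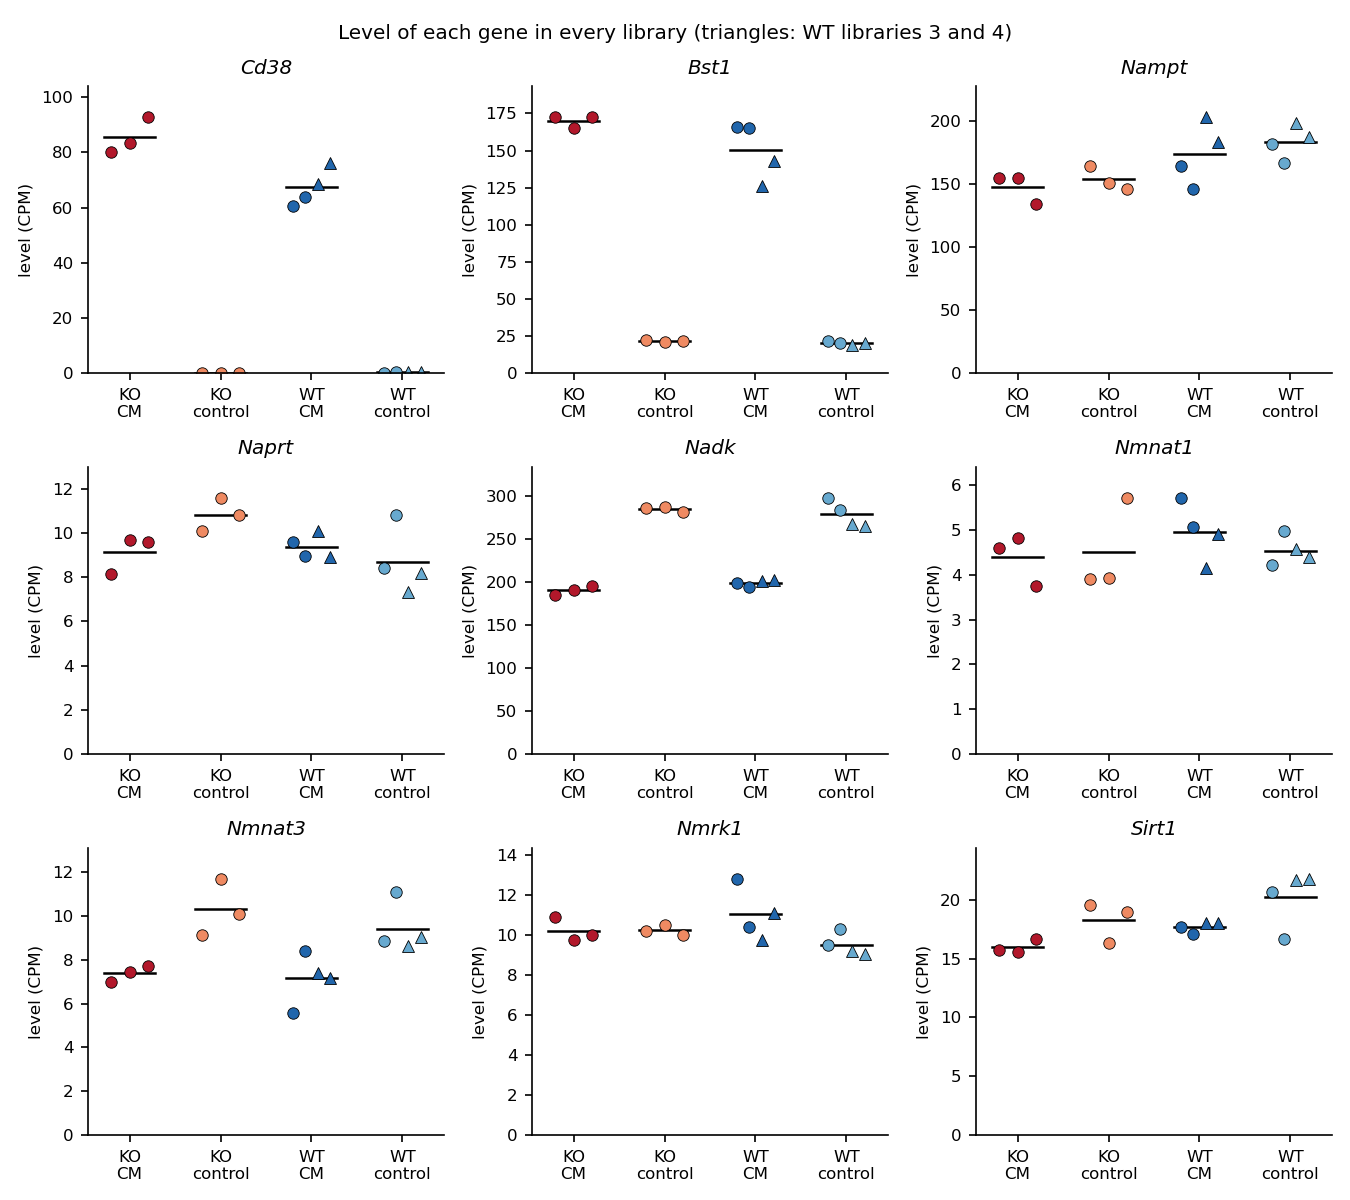
Level of each of the 9 genes in every library, in CPM on linear axes from 0, by group; points are libraries, bars are group means and triangles are WT libraries 3 and 4. Cd38 was at 60.7 CPM or more in every CM library and at 0.352 CPM or less in every control library, and Bst1 and Nadk libraries also separated by medium.

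Since the control values rest on few counts, the size of the Cd38 fold is uncertain. The ratio of summed counts, scaled by library totals, was 1687 in KO, with a 95% exact interval of 856 to 3909. Such intervals cover counting error only and treat each exon count as a separate read. A fragment over several exons can count more than once, so they are too narrow. In WT the ratio was 303 (235 to 397). Libraries 1 and 2 of WT gave 607 (330 to 1266), and libraries 3 and 4, which held 50 of the 60 WT control counts, gave 241 (183 to 325). As printed, the intervals of these library pairs just missed each other, at 325 and 330, and because they are too narrow nothing is drawn from that. The interval of libraries 1 and 2 overlapped the KO interval.

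The 8 listed exons of Cd38 (GRCm38, chromosome 5, 43868553 to 43912375, plus strand) were all counted in CM. Exon 8, of 2095 bp, held 40.9% of the Cd38 counts in KO CM and 45.9% in WT CM, at 16.7 CPM per kb in KO CM and 14.4 CPM per kb in WT CM. The shorter exons 2 to 7 stood at 55.6 to 90.2 CPM per kb in KO CM and 42.8 to 63.4 CPM per kb in WT CM, and exon 1 at 21.4 in KO CM and 14.5 in WT CM. In control medium the 8 counts in KO lay in exons 6 to 8 alone, 6 of them in exon 8. The 60 counts in WT control were spread over all 8 exons, with 20 in exon 8 and 4 in exon 1. No exon of another annotated gene overlaps an exon of Cd38, while the antisense Gm16015 and the intronic Gm16014 lie within its span.

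**Figure D2:**
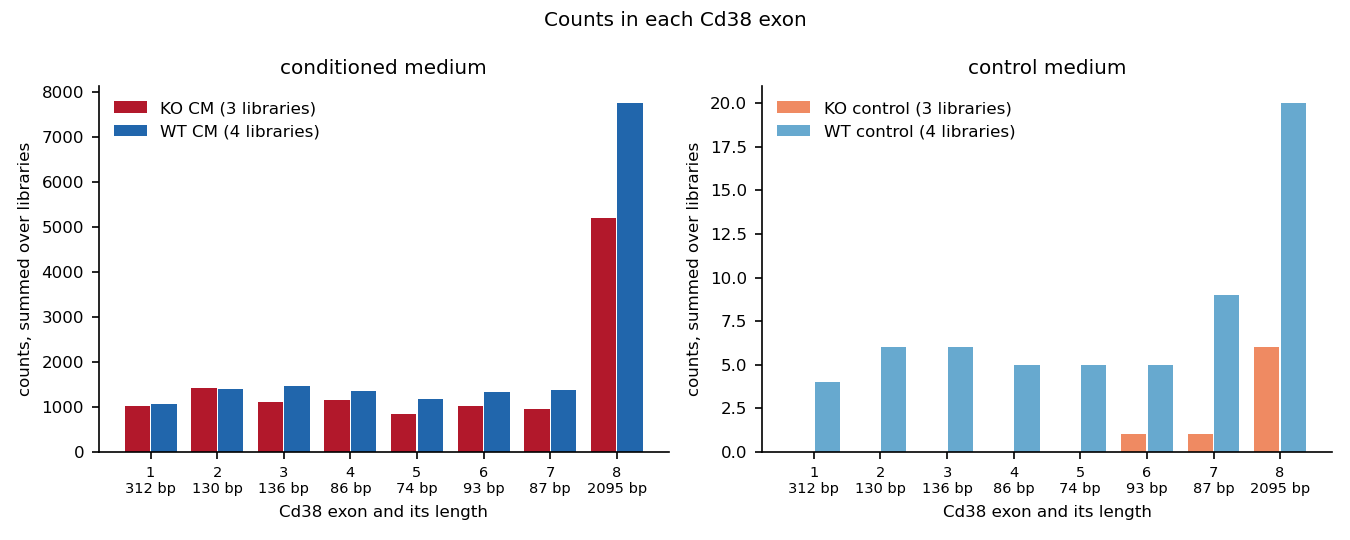
Counts in each of the 8 listed Cd38 exons, summed over the libraries of a group, in CM (left) and in control medium (right), with separate linear axes from 0. In CM every exon was counted in both genotypes, whereas the 8 KO control counts lay in exons 6 to 8 and the 60 WT control counts in all exons.

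Bst1, which codes for the second ADP-ribosyl cyclase of the family, rose with CM 7.86-fold in KO and 7.46-fold in WT. Its level was 172.8, 165.1 and 172.5 CPM in KO CM, against 22.2, 21.2 and 21.5 CPM in KO control. In WT CM it was 165.6, 165.5, 126.4 and 142.9 CPM, against 21.5, 20.4, 18.6 and 20.1 CPM in WT control. The media did not overlap, and the lower WT CM values were those of libraries 3 and 4. The difference was 2.97 ± 0.10 in KO (edgeR adjusted p = 3.77e-12) and 2.90 ± 0.08 in WT (edgeR adjusted p = 8.06e-13), higher in 3 of 3 and 4 of 4 CM libraries than in any control library. Unlike Cd38, Bst1 was already at 9.26 CPM per kb in KO control and 8.62 in WT control, above 59.2% and 57.4% of the tested genes. Per length, Cd38 stood at 0.390 ± 0.029 of Bst1 in KO CM and 0.354 ± 0.073 in WT CM (SD, n = 3 and 4).

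Bst1 lies next to Cd38 (GRCm38, chromosome 5, 43818885 to 43843986, plus strand), ending 24566 bp before it with 0 genes between. Within 500 kb, 5 genes including these were tested, and the other 3 also rose with CM in both genotypes. The window was examined after the values were seen. Fbxl5, an iron-sensing ubiquitin ligase subunit, rose by 1.09 ± 0.08 in KO and 0.92 ± 0.07 in WT, the ciliary gene Cc2d2a by 0.81 ± 0.13 and 0.72 ± 0.12, and Tapt1 by 0.47 ± 0.09 and 0.32 ± 0.08 (edgeR adjusted p from 2.31e-08 to 0.00285). Their increases were all smaller than that of Bst1. Bst1 and Fbxl5 share 98 bp of exon on opposite strands, and since the strand setting of the counting is not given, reads there cannot be assigned to one of them. With the most-counted exon of each gene alone, Bst1 still differed by 3.02 in KO and 2.95 in WT.

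Among the 5 members of the salvage routes, Nmnat3 alone passed the edgeR test. Nampt, the rate-limiting step, was abundant throughout, at 154.2, 154.6 and 133.9 CPM in KO CM, against 163.6, 150.5 and 146.1 CPM in KO control. In WT CM it was at 163.8, 145.6, 203.0 and 183.1 CPM, against 181.6, 166.3, 197.9 and 187.1 CPM in WT control. The media overlapped in both genotypes, and the difference was -0.06 ± 0.10 in KO (edgeR adjusted p = 0.715) and -0.08 ± 0.09 in WT (edgeR adjusted p = 0.557). Both signs turn under other settings, to 0.01 in KO without KO CM library 3 and to 0.006 in WT libraries 3 and 4 alone. Within WT, the 2 highest CM libraries for Nampt were 3 and 4, which were the 2 lowest for Bst1.

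Nmnat3, the mitochondrial member of the enzymes that complete NAD, was lower with CM in both genotypes. It was at 6.98, 7.44 and 7.72 CPM in KO CM, against 9.15, 11.7 and 10.1 CPM in KO control, and at 5.59, 8.41, 7.41 and 7.19 CPM in WT CM, against 8.88, 11.1, 8.63 and 9.06 CPM in WT control. The media did not overlap in either genotype, by a narrow margin in WT. Nmnat3 fell by 0.48 ± 0.14 in KO (edgeR adjusted p = 0.0139) and by 0.39 ± 0.12 in WT (edgeR adjusted p = 0.0183). The KO call was lost without KO CM library 1 (adjusted p = 0.0534) or KO control library 2 (0.0753), and the WT call without WT CM library 1 (0.0524) or WT control library 2 (0.061).

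Nmnat1, the nuclear member, ranged from 3.75 to 4.83 CPM in KO CM, 3.91 to 5.71 CPM in KO control, 4.16 to 5.72 CPM in WT CM and 4.21 to 4.97 CPM in WT control, with full overlap. Nmrk1, which phosphorylates nicotinamide riboside, averaged 10.2 ± 0.62 CPM in KO CM and 10.2 ± 0.24 CPM in KO control. In WT it averaged 11.0 ± 1.32 CPM in CM and 9.51 ± 0.55 CPM in control medium, a difference of 0.21 ± 0.09 (edgeR adjusted p = 0.0695). Naprt, which uses nicotinic acid, averaged 9.15 ± 0.85 CPM in KO CM and 10.8 ± 0.78 CPM in KO control (-0.24 ± 0.13, edgeR adjusted p = 0.156), and 9.38 ± 0.55 CPM in WT CM and 8.70 ± 1.5 CPM in WT control (0.11 ± 0.11, edgeR adjusted p = 0.464). None of these 3 genes passed in either genotype with the main edgeR settings. Other settings called Nmrk1 in WT (limma-voom, adjusted p = 0.0391, the split of WT libraries as a term, 0.0343, without WT CM library 3, 0.034, and without WT control library 2, 0.0469). Naprt passed in WT libraries 3 and 4 alone (0.29, edgeR adjusted p = 0.0434), where libraries 1 and 2 gave -0.06, and in KO with library totals as the only scaling (-0.35, 0.0404). Naprt shares 277 bp of exon with Eef1d on the same strand, so its counts may include reads of that translation elongation factor gene.

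Nadk, the cytosolic kinase that makes NADP from NAD, was lower with CM and was the other member with a firm response. It was at 184.6, 191.3 and 195.4 CPM in KO CM, against 285.7, 287.8 and 281.2 CPM in KO control. In WT CM it was at 198.8, 193.9, 201.0 and 202.6 CPM, against 298.1, 284.1, 268.1 and 264.8 CPM in WT control. No CM library reached the lowest control library in either genotype. Nadk fell by 0.58 ± 0.05 in KO (edgeR adjusted p = 4.35e-07) and by 0.49 ± 0.05 in WT (edgeR adjusted p = 5.69e-07). Sirt1, a nuclear NAD-dependent deacetylase, averaged 16.0 ± 0.58 CPM in KO CM and 18.3 ± 1.74 CPM in KO control, and 17.7 ± 0.43 CPM in WT CM and 20.2 ± 2.41 CPM in WT control. Its difference was -0.19 ± 0.10 in KO (edgeR adjusted p = 0.142) and -0.19 ± 0.08 in WT (edgeR adjusted p = 0.0907). With the replicate number as a block within each genotype, the WT difference of Sirt1 was -0.19 and passed (edgeR adjusted p = 0.0328), and without WT control library 2 it was -0.27 (0.00673). Sirt1 shares 65 bp of exon with the antisense gene Gm16145.

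**Figure D3:**
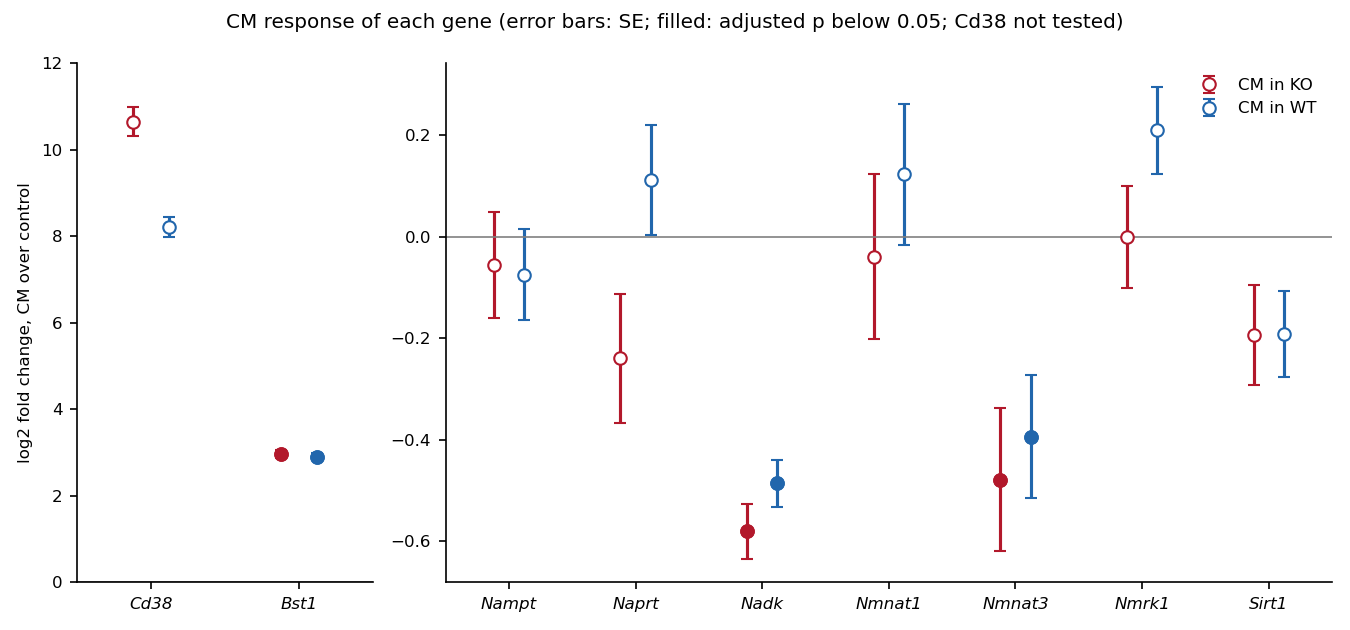
Log2 fold change of CM over control medium for each of the 9 genes, in KO and in WT; bars are SE and filled points passed an adjusted p of 0.05, with Cd38 shown untested. The left panel has a wider axis: Cd38 and Bst1 lie at 2.90 or more, while the 7 others lie between -0.58 and 0.21.

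Among the 8 members other than Cd38, CM thus raised 1 (Bst1) and lowered 2 (Nadk and Nmnat3) in each genotype. Of all tested genes, 20.0% were called higher and 18.2% lower with CM in KO, and 19.3% higher and 18.0% lower with CM in WT, so these counts are close to the background. The median difference of the 8 was -0.12 in KO and 0.02 in WT, beside -0.01 and -0.01 over all genes. With WT libraries 1 and 2 alone and all KO libraries, Bst1, Nadk and Nmnat3 differed by 2.98, -0.57 and -0.51 in WT.

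In KO the order of the members by level per kb of exon changed between media only in the places of Bst1 and Cd38 relative to the others. The first place of Bst1 in CM also rested on the fall of Nadk, since its 72.8 CPM per kb was below the 91.6 of Nadk in KO control. In KO CM the order was Bst1 (72.8 ± 1.87 CPM per kb), Nadk (61.2 ± 1.76), Nampt (32.5 ± 2.60) and Cd38 (28.4 ± 2.18), followed by Nmrk1 (6.27), Naprt (4.84), Sirt1 (4.09), Nmnat3 (2.56) and Nmnat1 (1.75). The lower ranks depend on the length used: per kb of merged exons Nmrk1 (2.77) came after Naprt (3.90) and Sirt1 (3.0) in KO CM, and Nmnat3 (1.47) and Nmnat1 (1.45) were about level. In KO control it was Nadk (91.6 ± 1.08), Nampt (33.7 ± 2.00) and Bst1 (9.26 ± 0.20), then Nmrk1, Naprt, Sirt1, Nmnat3 and Nmnat1 between 6.26 and 1.80, with Cd38 last at 0.0164. In KO, the neighbours whose libraries overlapped were Nampt and Cd38 in CM and Nmrk1 and Naprt in control medium. In WT CM, Bst1 (64.3 ± 8.16) and Nadk (64.0 ± 1.21) overlapped at the top, Nampt followed at 38.2 ± 5.44 and Cd38 at 22.3 ± 2.25, and Nmnat3 and Nmnat1 overlapped at the bottom. In WT control the order began with Nadk (89.6 ± 4.94), Nampt (40.3 ± 2.89) and Bst1 (8.62 ± 0.51) and ended with Cd38 (0.0662), and Nmrk1, Sirt1 and Naprt overlapped in between. Cd38 stood above 82.1% of the tested genes per kb in KO CM and 77.6% in WT CM, against 0.5% in KO control and 3.3% in WT control.

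Between genotypes, none of the 9 members passed the edgeR test in CM, and none of the 8 members other than Cd38 passed it in control medium. Cd38 is described there without a test, since it passed the filter on low counts only through its CM libraries. In control medium, 2.82% of all tested genes were called higher and 2.50% lower in KO, and in CM 3.10% were called higher and 1.49% lower. Unadjusted p-values were below 0.05 for Cd38, Bst1 and Nampt in CM and for Nampt and Naprt in control medium, as they were for 23.4% of all genes in CM and 25.6% in control medium. Calls by other tools differed: DESeq2 called Cd38 in CM and 0 of the other 8 in either medium, and limma-voom with quality weights called Nampt, Naprt and Sirt1 in control medium and 0 members in CM.

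For Cd38 the KO mean was the higher one in CM and the lower one in control medium. In CM it averaged 85.5 ± 6.58 CPM in KO and 67.3 ± 6.78 CPM in WT. Every KO library (80.3 CPM or more) lay above every WT library (76.3 CPM or less). Sirt1 in CM and Nampt in control medium also had no overlap between genotypes without passing (edgeR adjusted p = 0.353 and 0.123). The share of all genes that separate in this way was not counted. The Cd38 difference in CM was 0.34 ± 0.15 (edgeR adjusted p = 0.195). It passed when WT libraries 3 and 4 were left out (0.47, edgeR adjusted p = 0.0269), with the split of WT libraries as a term (0.48, 0.0134), with DESeq2 (0.0282) and without WT control library 1 (0.0473), and failed under the other settings tried. In control medium Cd38 averaged 0.0493 ± 0.0252 CPM in KO and 0.199 ± 0.148 CPM in WT, with WT control library 1 at 0 and below all KO libraries. The ratio of 8 KO counts to 60 WT counts, scaled by depth, was 0.225 with a counting interval of 0.0929 to 0.472. This interval too is narrow, since a fragment can count in several exons. With WT control libraries 3 and 4 left out, the ratio of 8 KO counts to 10 WT counts was 0.498 (0.171 to 1.40).

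The other members with unadjusted p below 0.05 between genotypes were Bst1 in CM, Nampt in both media and Naprt in control medium. They differed by less than Cd38 did in CM. Bst1 averaged 170.1 ± 4.37 CPM in KO CM and 150.1 ± 19.1 CPM in WT CM (0.18 ± 0.08, edgeR adjusted p = 0.196), but 0.05 against WT libraries 1 and 2 alone. In control medium it averaged 21.6 ± 0.47 CPM in KO and 20.1 ± 1.19 CPM in WT (0.11 ± 0.09, edgeR adjusted p = 0.448), where the sign turned with the split as a term (-0.006). Nampt did not pass in either medium: it averaged 147.6 ± 11.8 CPM in KO CM and 173.9 ± 24.7 CPM in WT CM (-0.24 ± 0.10, edgeR adjusted p = 0.164), and 153.4 ± 9.08 CPM in KO control and 183.2 ± 13.2 CPM in WT control (-0.26 ± 0.10, edgeR adjusted p = 0.123). With WT libraries 3 and 4 left out these were -0.06 and -0.18. Naprt averaged 10.8 ± 0.78 CPM in KO control and 8.70 ± 1.5 CPM in WT control (0.32 ± 0.12, edgeR adjusted p = 0.117), and without WT control library 2 it passed (0.44, 0.0162). Sirt1 in control medium was not among these (edgeR unadjusted p = 0.139). It differed by -0.14 ± 0.09 (edgeR adjusted p = 0.336), and by -0.02 against WT libraries 1 and 2 alone.

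Whether the response to CM differed between genotypes was tested as an interaction, the CM difference in KO minus that in WT. In edgeR 0.00% of the 13311 genes were called higher and 0.00% lower, with 1050 genes at an unadjusted p below 0.05, while DESeq2 called 84 and limma-voom 27. With the replicate number as a block within each genotype, edgeR called 205 genes, 0 of them members. For Cd38 the interaction is built from the folds that chose it and is a description: 2.43 ± 0.70, or 1.43 with WT libraries 1 and 2 alone, resting on 8 counts in KO control and 60 in WT control. None of the other 8 members had an unadjusted p below 0.05, and neither DESeq2 nor limma-voom called any of them. For Bst1 the interaction was 0.08 ± 0.12 (edgeR adjusted p = 0.939), turning to -0.007 with WT libraries 1 and 2 alone, and for Nadk it was -0.10 ± 0.07 (edgeR adjusted p = 0.804).

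The wider NAD pathway was read from 10 lists of 75 genes, of which 73 were in the table and 61 were tested. Without the 9 members, 52 were tested: 11 (21.2%) were called higher and 11 (21.2%) lower with CM in KO, and 11 (21.2%) higher and 8 (15.4%) lower in WT, near the shares of all genes given above. Their median difference was -0.02 in KO and -0.06 in WT. The lists did not move as blocks, and the genes described next are those called in them. Of these calls, 12 of 22 in KO and 13 of 19 in WT held under every alternative run. The losses named below are not all of those found.

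Of the other 3 tested NAD glycohydrolases and ectoenzymes, Enpp1 alone passed. Enpp1, which cleaves extracellular nucleotides including NAD, rose to 42.0 ± 3.78 CPM in KO CM, against 19.1 ± 1.26 CPM in KO control (1.14 ± 0.08, edgeR adjusted p = 1.57e-08), and to 33.2 ± 2.01 CPM in WT CM, against 17.5 ± 0.30 CPM in WT control (0.93 ± 0.07, edgeR adjusted p = 2.62e-08). Enpp1 was also the pathway gene called between genotypes in CM, higher in KO by 0.34 ± 0.07 (edgeR adjusted p = 0.0155). It was 1 of 52 tested without the members (1.92%), below the 3.10% of all genes called higher there. That call was lost on the most-counted exon alone (0.36, edgeR adjusted p = 0.166) and against WT libraries 1 and 2 alone (0.31, 0.0693). It was also lost without KO CM library 1 (0.0723) or WT CM library 4 (0.0526). Sarm1, an intracellular NAD hydrolase, differed by -1.01 ± 0.42 in KO (edgeR adjusted p = 0.0692) and by -0.89 ± 0.37 in WT (0.072), Nudt12, an NAD(H) pyrophosphatase gene, did not pass (0.273 and 0.586), and the ectonucleotidase gene Nt5e had 41 counts over the 14 libraries and was not tested.

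Transport and intracellular signalling genes together held calls in both directions. Slc25a51, the mitochondrial NAD carrier, rose to 110.5 ± 6.04 CPM in KO CM, against 50.4 ± 1.64 CPM in KO control (1.13 ± 0.08, edgeR adjusted p = 9.88e-09), and to 120.1 ± 8.68 CPM in WT CM, against 55.0 ± 3.91 CPM in WT control (1.13 ± 0.06, edgeR adjusted p = 1.49e-09). Among genes for channels and binding proteins of cyclic ADP-ribose, ADP-ribose and NAADP, a related calcium messenger, Tpcn1 fell and Jpt2 and Ryr1 rose. Of 7 tested, 2 (28.6%) were called higher and 1 (14.3%) lower in KO, and 3 (42.9%) and 1 (14.3%) in WT. Over all tested genes the shares were 20.0% and 18.2% in KO, and 19.3% and 18.0% in WT. With WT libraries 3 and 4 left out of the fit, 5 of these channel and binding protein genes were higher in KO and 4 in WT. The share of all genes called higher in that fit was not taken. The endolysosomal channel gene Tpcn1 averaged 268.6 ± 14.4 CPM in KO CM and 488.5 ± 10.9 CPM in KO control (-0.86 ± 0.06, edgeR adjusted p = 2.29e-08), and 293.0 ± 13.7 CPM in WT CM and 496.9 ± 24.8 CPM in WT control (-0.76 ± 0.05, edgeR adjusted p = 1.54e-08). Jpt2, for an NAADP-binding protein, rose by 0.60 ± 0.08 in KO and 0.45 ± 0.07 in WT (edgeR adjusted p = 1.65e-05 and 6.73e-05). Ryr1, the ryanodine receptor of skeletal muscle, rose at a low level to 2.10 ± 0.65 CPM in KO CM, against 0.334 ± 0.084 CPM in KO control (2.65 ± 0.38, edgeR adjusted p = 4.74e-05), and to 2.35 ± 0.35 CPM in WT CM, against 0.457 ± 0.244 CPM in WT control (2.40 ± 0.31, edgeR adjusted p = 1.52e-05). Its KO call was lost on the most-counted exon alone (adjusted p = 0.0814). Trpm2, the ADP-ribose-gated channel, did not pass (0.37 ± 0.16 in KO, edgeR adjusted p = 0.0789, and 0.36 ± 0.14 in WT, 0.0535), and Lsm12 was called in WT alone (0.29 ± 0.07, 0.00324), which was not tested against KO beyond the interaction fit.

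Among the NAD-consuming PARPs, 15 were tested, with 2 (13.3%) called higher and 4 (26.7%) lower in KO, and 2 (13.3%) higher and 5 (33.3%) lower in WT, beside 18.2% and 18.0% of all genes called lower. With WT libraries 3 and 4 left out of the fit, 6 were lower in KO and 9 in WT. Over all genes and both directions, that fit called 6259 in KO and 4348 in WT, against 5077 and 4960 with all libraries. The share of all genes called lower in it was not taken, so the 6 and 9 have no matching background. Parp1, the main DNA damage PARP, averaged 100.6 ± 3.45 CPM in KO CM and 150.1 ± 3.57 CPM in KO control (-0.58 ± 0.07, edgeR adjusted p = 1.05e-05), and 102.7 ± 7.18 CPM in WT CM and 148.2 ± 11.6 CPM in WT control (-0.53 ± 0.06, edgeR adjusted p = 5.1e-06). Parp8 fell by 0.84 ± 0.08 in KO and by 0.68 ± 0.07 in WT, and Parp12, an interferon-inducible member, fell by 0.39 ± 0.11 in KO and by 0.44 ± 0.09 in WT (edgeR adjusted p from 3.01e-07 to 0.00812). Parp3, another DNA repair PARP, rose by 0.95 ± 0.08 in KO and 0.77 ± 0.07 in WT, and the tankyrase gene Tnks2 rose by 0.30 ± 0.05 in KO and 0.27 ± 0.04 in WT (edgeR adjusted p from 9.14e-08 to 0.000149). Parp14 fell in WT (-0.36 ± 0.10, edgeR adjusted p = 0.00822) and had -0.14 ± 0.11 in KO (0.354). Parp9 was called lower in KO (-0.29 ± 0.10, edgeR adjusted p = 0.032) and WT (-0.24 ± 0.09, 0.0418). Its KO call was lost on leaving out any 1 KO library other than control library 3 (adjusted p up to 0.117), and its WT call on leaving out KO CM library 1 or 2, KO control library 2, WT CM library 1 or 2, or WT control library 1, 3 or 4 (up to 0.122).

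**Figure D4:**
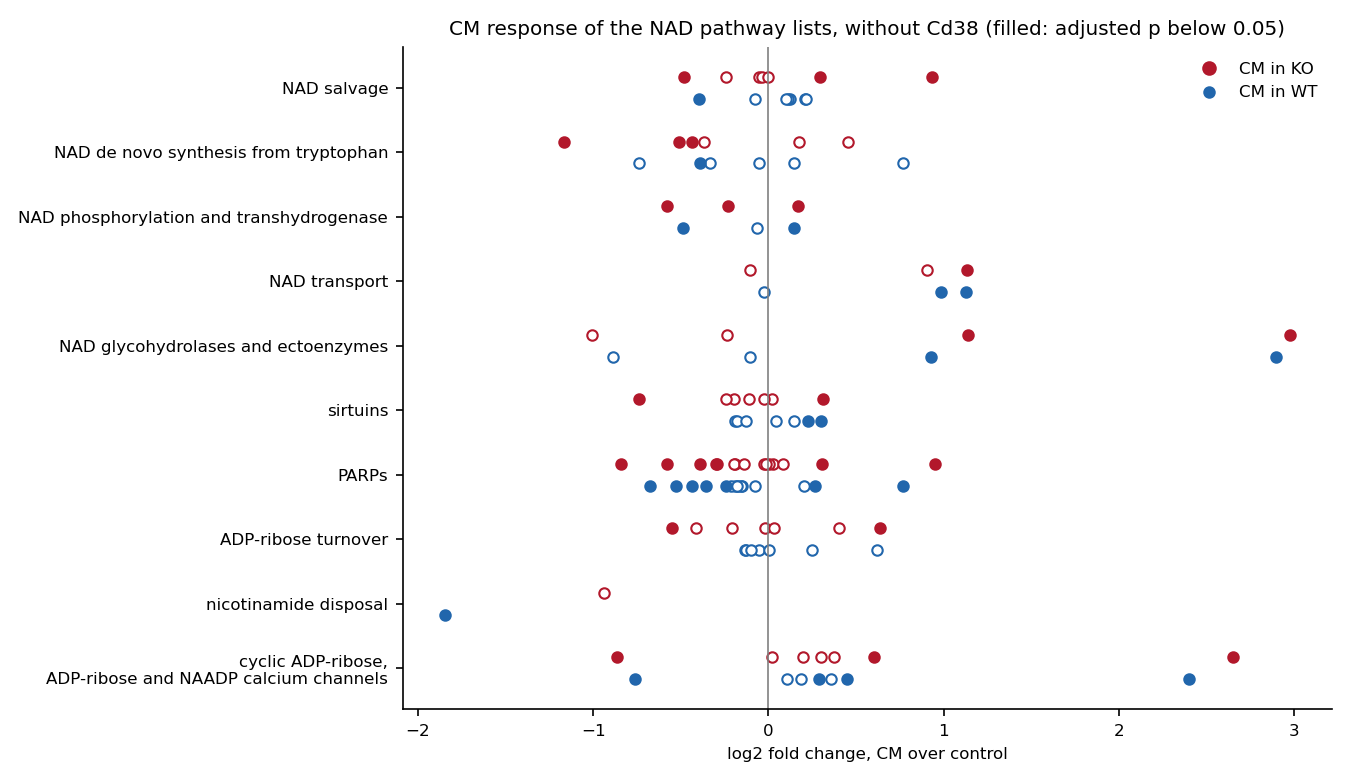
Log2 fold change of CM over control medium for each tested gene of the 10 NAD pathway lists except Cd38, in KO (upper row of each list) and in WT (lower row); filled points passed an adjusted p of 0.05. Bst1, near 2.9 in both genotypes, and Ryr1, at 2.65 in KO and 2.40 in WT, lie farthest to the right, and most other genes lie within 1 of zero.

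Of the 7 sirtuins, Sirt2, a mainly cytosolic deacetylase, rose by 0.31 ± 0.05 in KO and 0.23 ± 0.04 in WT (edgeR adjusted p = 0.00015 and 0.000652), calls that were lost on the most-counted exon alone (0.468 and 0.196). Sirt5, a mitochondrial desuccinylase, fell by 0.74 ± 0.18 in KO (edgeR adjusted p = 0.0043) and had -0.13 ± 0.15 in WT (0.561). Sirt6 was called higher in WT (0.30 ± 0.10, 0.0343) and was lost without WT CM library 1, 2 or 4 or WT control library 1 or 4 (adjusted p up to 0.106). The Sirt6 call was also lost in WT libraries 3 and 4 alone (edgeR adjusted p = 0.405) and on the most-counted exon alone (0.454). In KO the purine nucleoside phosphorylase Pnp2, whose family releases nicotinamide from its riboside, rose by 0.94 ± 0.19 (edgeR adjusted p = 0.000935), against 0.10 ± 0.16 in WT (0.665), and Pnp was at 0.30 ± 0.10 in KO (0.0257, lost on leaving out any 1 KO library other than control library 1, with adjusted p up to 0.102). Pnp and Pnp2 are close copies, so the split of reads between them is uncertain. Nudt5, an ADP-ribose hydrolase, rose by 0.64 ± 0.15 and Macrod1, a mono-ADP-ribosylhydrolase, fell by 0.55 ± 0.15 in KO (edgeR adjusted p = 0.00355 and 0.0102), and neither passed in WT (0.155 and 0.463). The Macrod1 call was lost on the most-counted exon alone (0.0599). None of these genotype contrasts passed the interaction test.

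The kynurenine route held few counts at several steps. Ido1, Tdo2, Qprt and Acmsd had 89, 60, 24 and 9 counts over the 14 libraries and were not tested. Kmo, the kynurenine hydroxylase, was at 14.1 ± 0.44 CPM in KO CM and 12.5 ± 0.71 CPM in KO control, and at 17.3 ± 2.16 CPM in WT CM and 15.6 ± 1.81 CPM in WT control, and did not pass (edgeR adjusted p = 0.248 in KO and 0.266 in WT), nor did Nadsyn1, for NAD synthetase, at means of 5.06 to 6.88 CPM (0.24 and 0.868). Afmid, the kynurenine formamidase, fell by 0.44 ± 0.13 in KO and by 0.39 ± 0.11 in WT (edgeR adjusted p = 0.0177 and 0.0133), and both calls were lost on the most-counted exon alone (0.0798 and 0.0801), the KO call also without KO CM library 1 (0.0849) or KO control library 3 (0.0544), and the WT call in WT libraries 3 and 4 alone (0.0514). Kynu and Haao, later steps of the route, were called lower in KO at low levels (-0.51 ± 0.18, 0.0355, and -1.17 ± 0.36, 0.0184), calls that were lost for Kynu without KO CM library 1 or 2 or KO control library 1 or 2 (up to 0.129) and for Haao without KO CM library 2 or 3 or KO control library 2 (up to 0.171). The Kynu call was also lost on the most-counted exon alone (edgeR adjusted p = 0.245). In KO control, Haao (1.27 ± 0.33, edgeR adjusted p = 0.0375) and Pnp2 (-0.67 ± 0.18, 0.0423) were the pathway genes called against WT control. These were 1 higher and 1 lower of 52 tested without the members (1.92% each), below the 2.82% and 2.50% of all genes. Both calls were lost with WT libraries 3 and 4 left out (0.104 and 0.0798). The Haao call was also lost with the replicate number as a block over both genotypes (1.18, 0.0736). It was lost too without KO control library 2 or 3 or WT control library 1, 3 or 4 (up to 0.243). The Pnp2 call was lost on leaving out any 1 KO library or WT control library 1, 3 or 4 (up to 0.19). Nadk2, the mitochondrial NAD kinase, differed by -0.23 ± 0.08 in KO (0.0416, lost on leaving out any 1 KO library other than CM library 3, up to 0.199) and Nnt, the proton-coupled transhydrogenase, by 0.17 ± 0.06 in KO and 0.14 ± 0.05 in WT (0.0398 and 0.0416). The Nadk2 call was also lost on the most-counted exon alone (edgeR adjusted p = 0.429). The Nnt calls were lost with 6 of 14 libraries left out in turn in KO (up to 0.133) and 8 of 14 in WT (up to 0.115), and library totals alone gave 0.06 in both. Aox1, an oxidase of nicotinamide derivatives, fell by 1.85 ± 0.37 in WT at under 1 CPM (0.00101), and the gap junction gene Gja1 was called higher there (0.98 ± 0.35, 0.0366, lost without WT CM library 2, 3 or 4 or WT control library 1 or 2, up to 0.0905).

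The pattern of Cd38 over the 14 libraries was most like that of Selp, Zfp703, Klf4, Pim1, Gda and Kif3a, with Pearson correlations of log2 CPM of 0.996, 0.993, 0.993, 0.992, 0.992 and 0.991 among 9624 genes at a mean of 4 CPM or more. These correlations mostly restate the shift between media that all libraries share. Selp, the endothelial and platelet selectin, was the one with Cd38-like silence in control medium, at 63.7 CPM in KO CM, 0.00585 CPM in KO control, 54.7 CPM in WT CM and 0.0736 CPM in WT control. Within the 7 CM libraries alone, Gda, the guanine deaminase gene, and Selp kept correlations of 0.933 and 0.895 with Cd38, while Klf4 and Pim1 were at -0.095 and -0.158. Bst1 ranked 149 with 0.975, and 0.288 within CM. Nadk had the lowest correlation with Cd38 of all 9624 genes, -0.989 over the 14 libraries and -0.357 within CM.

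Bst1 was most like Relt, Ccl9, Il4ra and Eps8 (0.998, 0.997, 0.997 and 0.996), of which Il4ra, the IL-4 receptor alpha chain, averaged 553.9 CPM in KO CM, 143.8 CPM in KO control, 505.9 CPM in WT CM and 136.5 CPM in WT control. Nampt was most like Ifi209, Ppm1k, Hipk1 and Marchf5 (0.959, 0.941, 0.938 and 0.931), which like Nampt were lower in all KO than in WT groups on average. Within the 7 CM libraries Nampt and Bst1 correlated at -0.919, where WT libraries 3 and 4 had the highest Nampt, the lowest Bst1 and the greatest depth, and the part of depth in this value was not tested.

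Because CD38 and BST1 are also used as markers of B lineage cells, other cell types were read beside these results. Of 8 B and plasma cell markers, Pax5 and Mzb1 had 0 counts in all libraries, and Ms4a1 and Jchain had 10 and 19 counts in all. Sdc1, which macrophages also express, made up nearly all of that list, whose sum was 106 to 121 CPM in KO CM and 66.5 to 70.5 CPM in KO control, and 99.3 to 118 CPM in WT CM and 71.6 to 79.6 CPM in WT control. Of 6 monocyte markers, 5 were called higher with CM in each genotype, beside 20.0% of all tested genes in KO and 19.3% in WT. The other, Ly6c2, was at 0.342 CPM in KO CM and 0.25 CPM in KO control (0.397). In WT, Ly6c2 was at 0.167 CPM in CM and 0.393 CPM in control medium (-1.165). The 6 markers summed to 292 to 322 CPM in KO CM and 47.9 to 55.0 CPM in KO control, and to 215 to 280 CPM in WT CM and 41.1 to 53.3 CPM in WT control. Their part in the Cd38 and Bst1 levels was not tested, and in bulk RNA a larger share of such cells and more RNA per cell cannot be told apart. Of 9 T and NK cell markers 8 were in the table, with Cd3d, Cd3g, Ncr1 and Gzma at 0 and sums under 2 CPM, and the sums of 10 neutrophil, 6 dendritic and 5 mast cell markers stayed under 6, 3 and 4 CPM. The neutrophil precursor gene Prtn3 was at 3.23 CPM in KO CM and 0.0121 CPM in KO control, and at 3.45 CPM in WT CM and 0.00899 CPM in WT control. Of 5 tested neutrophil markers, CM gave 2 called higher and 2 lower in KO, and 2 higher and 0 lower in WT. Over all tested genes, 20.0% were called higher and 18.2% lower in KO, and 19.3% and 18.0% in WT. S100a8, S100a9 and Ltf differed by -0.85, -3.01 and -2.78 in KO, and by -0.40, -0.24 and -1.28 in WT. All 10 core macrophage markers were expressed, summing to 19415 to 20116 CPM in KO CM, 21540 to 22234 CPM in KO control, 29564 to 32596 CPM in WT CM and 30463 to 35937 CPM in WT control. Lyz2, which carries the Cre insertion in LysM-Cre mice, led that list. It averaged 9478 CPM in KO CM and 10221 CPM in KO control, against 20458 CPM in WT CM and 21891 CPM in WT control. The lower KO sums of the list include this difference. With CM, 2 of the 10 were called higher and 3 lower in each genotype, beside the shares of all tested genes given above. Itgam differed by 1.44 in KO and 1.30 in WT, and Fcgr1 by 0.60 and 0.52. Adgre1 differed by -0.96 and -0.69, Csf1r by -0.57 and -0.45, and Aif1 by -2.08 and -1.62. The part of these 5 genes in the Cd38 and Bst1 levels was not tested. Of 8 hepatoma and hepatocyte genes, Alb, Serpina1a and Fgb were at 0 in all libraries, while Afp (group means of 1.68 to 2.53 CPM) and Apoa2 (3.12 to 4.02 CPM) were counted in both media, and that list was led by Trf, which macrophages also make, and summed to 408 to 465 CPM in KO CM and 780 to 885 CPM in KO control, and to 441 to 483 CPM in WT CM and 724 to 791 CPM in WT control. The 8 stromal and endothelial markers summed to 11.1 to 17.2 CPM in CM and 12.5 to 19.8 CPM in control medium.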

How the data were processed

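The authors deposited 1 table of raw counts per exon of transcript models for the 14 libraries, whose alignment, per the submitters' processing notes, used HISAT2 and the mm10 build. The counting tool, annotation and strand setting are not given in the sources used here. Libraries were made with the QIAseq Stranded mRNA Select kit, per the labels' protocols. The table holds 427386 entries, of which 196941 repeat an exon of the same gene with 48.6% of the deposited counts. The repeats were removed and the 230445 distinct exons summed per gene, so a fragment over several exons can count more than once. The deposited exon length, another column of that file, gave the kb in levels per length. Entries naming no gene numbered 0.

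The test on gene counts was the quasi-likelihood F test of edgeR 4.0.16, run in R 4.3.3 after TMM scaling and filterByExpr (at least 10 counts and a total of 15), with 1 mean per group over all 14 libraries, Benjamini-Hochberg adjustment over all tested genes in each of 5 comparisons, and calls at an adjusted p below 0.05. The test was also run on simulated counts with known changes. DESeq2 1.42.0 and limma 3.58.1 (voom with quality weights) were alternatives, beside other scalings and filters, only the compared groups, a replicate block, the split of WT libraries 1 and 2 from 3 and 4, other exon sums and leaving out each library. The replicate block was set within each genotype, KO included, for CM and the interaction, and over both genotypes for the genotype contrasts. WT libraries 3 and 4 alone, and the pathway counts without those libraries, were chosen after seeing the data.

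The members, the gene lists and the tests were chosen with earlier results of these data known. Named are all members, and from each list every called gene, or the 4 with the smallest p where more than 4 were called in 1 direction. Genes most like a member have the highest Pearson correlation of log2 CPM (prior count 2), predicted genes left out. WT libraries of the same number deviated together from their group means in CM and control (r = 0.331 to 0.47), above the limit of 0.1 set for pairing. Libraries also correlated with the other number of their pair (r up to 0.462), and KO numbers did not pair (r from -0.036 to 0.051). Gene positions are from GENCODE M21 (GRCm38) and promoter windows from RefSeq (GRCm38.p6).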

Additional observations from a re-analysis of the deposited data

How the results depend on the processing

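Of 681 values (26 fold changes of members under up to 27 other settings each), 643 kept their direction and their side of the threshold. For Cd38 between media, which was not tested, a value within its spread was counted as kept. The Cd38 values between genotypes in control medium and in the interaction were counted by the threshold, though both are descriptions without a test. Bst1 and Nadk were called for CM in every setting run (2.80 to 3.02 for Bst1 and -0.69 to -0.40 for Nadk over both genotypes). Signs that turned belonged to values that did not pass with the main settings: Nampt for CM in WT (0.006 in WT libraries 3 and 4 alone, -0.16 to 0 with a library left out) and in KO (-0.089 to 0.01 with a library left out), Naprt for CM in WT (-0.061 with WT libraries 1 and 2 and all KO, but 0.288 and called in WT libraries 3 and 4 alone), Bst1 between genotypes in control medium (-0.006 with the split of WT libraries as a term) and the Bst1 interaction (-0.007 with WT libraries 1 and 2).

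Counts of members called higher with CM in WT were 2 in place of 1 with limma-voom, with the split as a term and in WT libraries 3 and 4 alone, and 1 to 2 with a library left out. Those called lower with CM were 1 to 2 in each genotype with a library left out, and 4 in KO with library totals as the only scaling. Between genotypes, control medium gave 1 member higher with limma-voom and 0 to 1 with a library left out. There 2 were lower with limma-voom, and 0 to 1 with a library left out. DESeq2 and the fit without WT control library 1 each gave 1 lower, which was Cd38. Cd38 had 8 and 60 counts in control medium and is described there without a test. In CM, 1 member was higher with DESeq2, with the split as a term, against WT libraries 1 and 2 alone, and 0 to 1 with a library left out. In the interaction DESeq2 called 1, Cd38, whose folds chose it.

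Over all genes, calls between genotypes in control medium numbered 708, against 1501 with DESeq2, 4757 with limma-voom, 283 with only the compared groups, 384 with the most-counted exon and 224 to 1769 with a library left out. In CM they numbered 611, against 1219 with DESeq2, 1794 with limma-voom, 923 with the split as a term and 217 to 721 with a library left out. The interaction had 0, against 84 with DESeq2, 27 with limma-voom, 205 with the replicate block, 164 with the split as a term, 11 with WT libraries 1 and 2 and 0 to 2 with a library left out. The cause of these differences was not tested.

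Library totals alone moved the median of all genes for CM by -0.12 in KO and -0.09 in WT, and the share of higher calls to 34.9% in KO and 35.9% in WT, beside 52.4% and 51.8%, and in control medium to 76.9% of genotype calls, beside 53.0%. Sirt1 then passed for CM in both genotypes (-0.30 and -0.27). With merged exon lengths, levels per kb were lower, and Nmrk1, at 2.77 CPM per kb in KO CM, ranked below Naprt and Sirt1. Of the 6 genes most like Cd38, 2 were also among the top 6 by Spearman correlation. Without WT libraries 3 and 4, pathway genes called with CM numbered 16 higher and 19 lower in KO and 12 and 14 in WT, against 13 and 13 in KO and 13 and 10 in WT with all libraries. Calls over all genes then numbered 6259 in KO and 4348 in WT, against 5077 and 4960. The replicate block changed no member's call other than that of Sirt1 in WT. Depth limits Cd38 in control medium, where 3 counts are 0.0357 to 0.0679 CPM.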
